A study of Homo sapiens with 8 samples.

Results

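Homologous recombination, the Fanconi anemia pathway, the checkpoint kinases that act beside them and mismatch repair were described through 33 genes, chosen by name from 36779 genes in the deposited count tables. All 33 were present in both tables, and all 33 passed the filter on low counts, with which 17869 genes were tested. The set holds the BRCA1 and BRCA2 complexes (BRCA1, BARD1, BRIP1, PALB2, BRCA2), the recombination paralogs with RAD54L (RAD51B, RAD51C, RAD51D, XRCC2, XRCC3), RAD50 and NBN of the MRN complex, and BLM with its partners TOP3A, RMI1 and RMI2. It also holds 8 genes of the Fanconi core complex and its anchor (FANCA, FANCB, FANCC, FANCE, FANCF, FANCG, FANCL, FANCM), the FANCD2 and FANCI pair, the kinases ATM, ATR, CHEK1 and CHEK2, and the mismatch repair genes MSH6 and PMS2.

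Homologous recombination mends DNA breaks in S and G2 phase by copying the sister chromatid. MRN senses and trims the broken ends, BRCA1 with BARD1 acts on the trimmed ends, PALB2, BRCA2 and the paralogs act before strand exchange, RAD54L drives strand exchange, and BLM with TOP3A, RMI1 and RMI2 takes apart the joined molecules. The Fanconi core complex attaches ubiquitin to FANCD2 and FANCI where a crosslink stalls replication, and mismatch repair, in which MSH6 and PMS2 act, corrects copying errors. In prostate cancer, loss of BRCA2 or ATM is known for its bearing on treatment with PARP inhibitors.

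The series holds 8 RNA-seq libraries of DU145 and PC3, established human prostate cancer cell lines, made from total RNA after removal of ribosomal RNA. In each line, 1 library came from cells with a plasmid for circ0003553, a circular RNA (circRNA), and 1 from cells with a plasmid for circ0004592, and each had its own negative control plasmid library. The circ0003553 pair of libraries is titled RCAN3 and the circ0004592 pair STK3, so each line has an RCAN3-arm control and an STK3-arm control, treated here as the 2 controls of that line. All cells were transfected, and no untransfected cells were part of the comparison.

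Total counts ran from 33444940 to 49926342 per library, and across genes the 2 controls of a line correlated at 0.995 in DU145 and 0.994 in PC3 on the log2 CPM scale. Among the members, the 2 controls differed by a median of 0.08 (log2) in DU145 and 0.09 in PC3, and at most by 0.29 (FANCB) and 0.90 (RMI1). CTNNA1, known as lost in PC3, lay between 3.88 and 4.65 CPM in PC3 and between 391 and 427 CPM in DU145. Epithelial markers summed to between 3357 and 4489 CPM in DU145 and between 1028 and 1308 CPM in PC3, leukocyte markers to under 1 CPM in every library, and the fibroblast list to between 22.2 and 27.98 CPM in PC3, against 1.92 to 3.06 CPM in DU145. CPM here means the count divided by a library's effective size (its total times its TMM factor), and a call means an adjusted p under 0.05 in edgeR's quasi-likelihood test, with Benjamini-Hochberg adjustment over all 17869 genes. No label says that the libraries came from separate cultures, so p-values measure the spread between these samples, which may be technical.

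Promoter windows of the 250 bases before a transcript start were found in RefSeq (GRCh38.p14) for 30 of the 33 members, 44 windows in all. NBN, RMI2 and FANCI are named only. The window of CHEK2 lies wholly within annotated exons and is not printed. The sequences below belong to 4 of the 7 members that were higher in PC3 with both circRNAs, and each is cut to the stretch that no exon of the deposited gene models covers. They run 5′ to 3′ on the gene's strand, and capitals mark a CCAAT box (CCAAT, or ATTGG when read from the other strand), the box bound by NF-Y.
BRIP1, chr17:61863529-61863778, minus strand: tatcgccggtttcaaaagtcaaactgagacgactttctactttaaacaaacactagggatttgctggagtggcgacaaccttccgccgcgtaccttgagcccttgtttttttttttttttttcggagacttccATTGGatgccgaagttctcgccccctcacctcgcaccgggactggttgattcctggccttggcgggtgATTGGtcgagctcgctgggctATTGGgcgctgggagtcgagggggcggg
BARD1, chr2:214809712-214809933, minus strand: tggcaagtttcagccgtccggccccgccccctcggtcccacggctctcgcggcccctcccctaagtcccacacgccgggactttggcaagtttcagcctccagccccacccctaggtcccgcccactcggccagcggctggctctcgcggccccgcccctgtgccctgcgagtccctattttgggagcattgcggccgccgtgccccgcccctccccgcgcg
BRCA2, chr13:32315345-32315473, plus strand: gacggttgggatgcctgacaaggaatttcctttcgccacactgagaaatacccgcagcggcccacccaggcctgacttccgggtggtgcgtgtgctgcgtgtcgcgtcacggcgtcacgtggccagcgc
RAD54L, chr1:46247438-46247687, plus strand: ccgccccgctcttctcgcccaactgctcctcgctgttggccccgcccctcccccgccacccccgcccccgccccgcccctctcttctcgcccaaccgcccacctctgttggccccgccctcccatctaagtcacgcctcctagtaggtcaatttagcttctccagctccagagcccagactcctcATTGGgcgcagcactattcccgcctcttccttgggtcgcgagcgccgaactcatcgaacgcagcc

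The printed stretch of BRIP1 holds 3 CCAAT boxes, that of RAD54L holds 1, and those of BARD1 and BRCA2 hold none. Another RAD54L window, chr1:46247513-46247762, is not printed and has CCAAT boxes at 140 and 77 bases before its start. Over the whole 250-base windows and on both strands, CCAAT was found in 20 of the 44 windows of members (15 of 30 genes) and in 32.0% of all 35116 windows of the table. The core of the interferon-stimulated response element, searched as GAAA, any 2 bases and GAAA, was in 0 of the 44 windows and in 3.02% of all windows. The E2F site searched as TTTNGCGC was in 2 windows, those of CHEK2 and FANCC, and in 1.51% of all. The cell cycle homology core TTTGAA was in 3 windows (ATM, BRIP1, FANCC) and in 13.3% of all. These matches describe letters in a window.

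**Figure D1:**
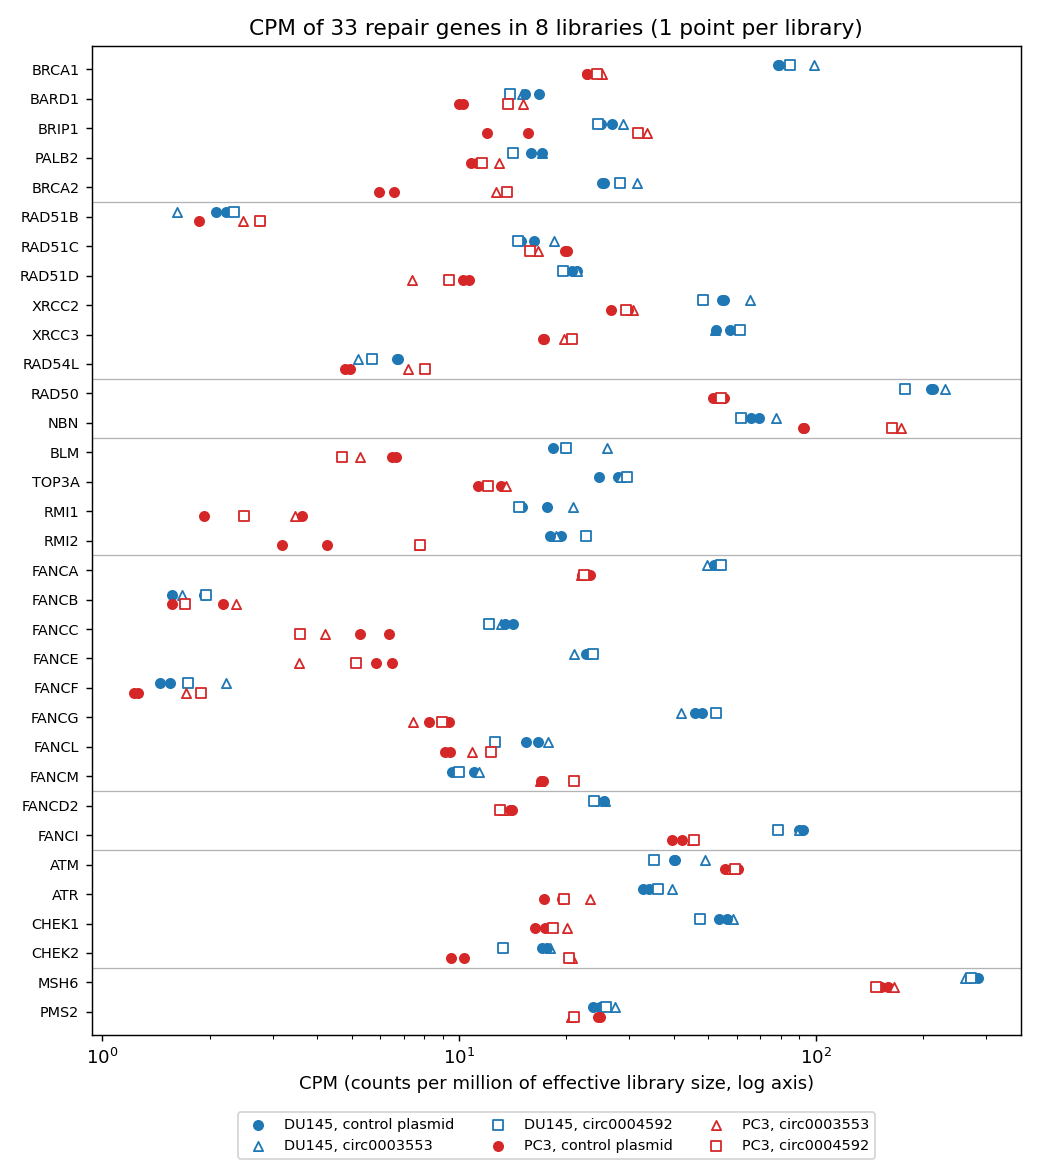
CPM of the 33 members (rows, grouped by role) in each of the 8 libraries, on a log axis. Filled circles are control libraries, triangles circ0003553 and squares circ0004592, with DU145 in blue and PC3 in red. Of the 33 genes, 21 have all 4 PC3 libraries below all 4 DU145 libraries.

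PC3 held less RNA than DU145 for 21 of the 33 members (63.6%, against 37.8% of all tested genes lower in PC3), and more for NBN, FANCM and ATM (3 of 33, against 39% of all tested genes higher). Without the mismatch repair genes, 20 of 31 were lower and 3 higher. The median log2 difference, PC3 minus DU145, was -0.87 over all members and 0.01 over all tested genes. The CPM of the 4 PC3 libraries lay wholly below those of DU145 for 21 members (36.5% of all tested genes) and wholly above for 3 (37.7% of all).

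The widest differences were those of RMI1, FANCG and FANCE. RMI1, which with RMI2 stabilises the complex of BLM and TOP3A, held 15.0, 20.8, 17.7 and 14.7 CPM in DU145, in the order RCAN3-arm control, circ0003553, STK3-arm control and circ0004592, an order kept in the sentences that follow. In PC3 it held 1.93, 3.47, 3.63 and 2.49 CPM, so the lines did not overlap, and the difference was -2.59 ± 0.13 (log2, SE; edgeR adjusted p = 2.61e-06). RMI2 held 19.4, 18.7, 17.9 and 22.7 CPM in DU145 and 4.27, 7.70, 3.18 and 7.78 in PC3 (-1.85 ± 0.20, adjusted p = 0.000101). All 4 members of the BLM group were lower in PC3: BLM, the helicase of the complex, by -1.86 and TOP3A, its topoisomerase, by -1.15.

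FANCG, a scaffold of the Fanconi core, was at 47.9, 42.0, 46.0 and 52.4 CPM in DU145 and at 8.24, 7.43, 9.38 and 8.94 CPM in PC3. Every PC3 library lay below every DU145 library, with a difference of -2.47 ± 0.08 (adjusted p = 5.04e-07). FANCE, which links the core to FANCD2, differed by -2.13, FANCC by -1.47, FANCA by -1.22 and FANCL, the ubiquitin ligase subunit, by -0.58. FANCA shares 23.6% of its exon bases with ZNF276 and FANCL 18.7% with VRK2, both on the opposite strand. ZNF276 differed by -0.83 and VRK2 by -0.57. FANCM, the DNA translocase that anchors the core on DNA, went the other way: it held 10.98, 11.4, 9.54 and 10.01 CPM in DU145 and 17.2, 16.8, 16.98 and 21.04 CPM in PC3 (0.78 ± 0.11, adjusted p = 0.000368). FANCB and FANCF did not pass (0.12 and -0.20). Both lay between 1.23 and 2.36 CPM in every library, the lowest range of the members with RAD51B. The substrates of the core, FANCD2 and FANCI, were lower in PC3 by -0.87 and -1.02.

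BRCA1, the ubiquitin ligase that acts early in recombination, held 79.1, 98.9, 78.4 and 84.5 CPM in DU145 and 22.8, 25.2, 22.8 and 24.3 CPM in PC3. The lines were far apart and the difference was -1.84 ± 0.08 (adjusted p = 1.14e-06). BRCA2 held 25.1, 31.7, 25.4 and 28.3 CPM in DU145 and 6.59, 12.7, 5.98 and 13.7 CPM in PC3, a difference of -1.59 ± 0.18 (adjusted p = 0.000119). PALB2, which bridges BRCA1 and BRCA2, differed by -0.46. BARD1 and BRIP1, the partner and the helicase of BRCA1, did not pass over all 8 libraries (-0.33 ± 0.15 and -0.30 ± 0.25).

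Of the paralogs, XRCC3 (-1.58), RAD51D (-1.15) and XRCC2 (-0.93) were lower in PC3, while RAD51B (0.26) and RAD51C (0.17) did not pass, and neither did RAD54L (0.01). XRCC3 lies opposite KLC1, and 76.7% of its exon bases are shared with that gene, which differed by 0.16. The MRN pair went opposite ways. RAD50, its ATPase, held 210.3, 230.4, 212.8 and 178.3 CPM in DU145 and 51.7, 53.7, 55.3 and 54.2 CPM in PC3 (-1.95 ± 0.09, adjusted p = 1.83e-06). NBN, its signalling subunit, held 65.9, 77.7, 69.6 and 61.9 CPM in DU145 and 91.9, 174, 92.7 and 163 CPM in PC3 (0.86 ± 0.18, adjusted p = 0.00282). Per length, NBN stood above RAD50 in PC3 and below it in DU145: the median RPKM of the 4 libraries was 20.6 for NBN and 5.39 for RAD50 in PC3, and 11.1 and 21.8 in DU145.

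Among the checkpoint kinases, CHEK1, the effector of ATR, was lower in PC3 by -1.58 and ATR itself, the kinase of stalled forks, by -0.84. ATM, the kinase of double-strand breaks, held 40.3, 48.8, 39.98 and 35.3 CPM in DU145 and 55.6, 57.8, 60.7 and 59.6 CPM in PC3 (0.52 ± 0.10, adjusted p = 0.00204). CHEK2, the effector of ATM, did not pass (-0.20 ± 0.25). ATM and NBN, which recruits ATM to breaks, were both higher in PC3, and CHEK1 and ATR both lower. RAD50, the MRN partner of NBN, was lower (-1.95) and CHEK2 did not pass, so the genes around ATM went different ways.

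**Figure D2:**
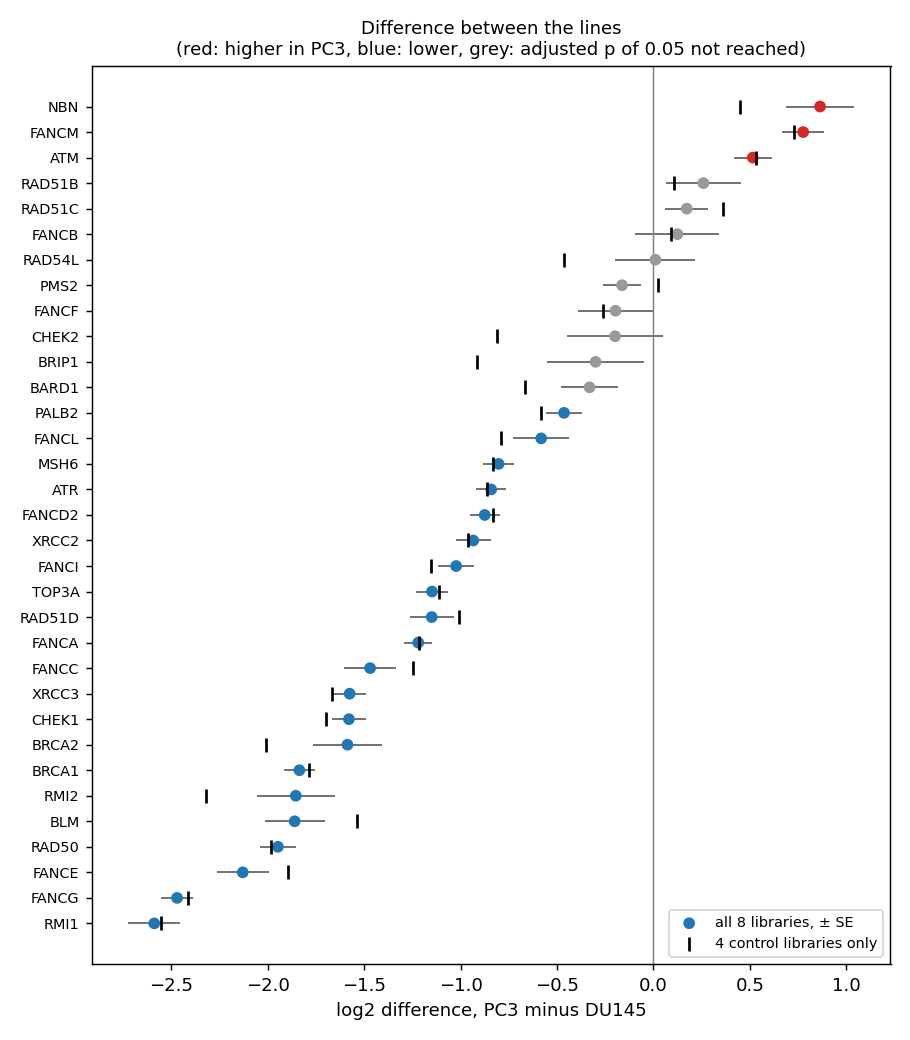
The log2 difference PC3 minus DU145 of each member (points, with SE bars, from the 8 libraries), ordered by size, and the same difference between the 4 control libraries (black ticks). Red and blue points passed the adjusted p of 0.05 and grey points did not. The ticks of NBN, RAD54L, CHEK2, BRIP1, BARD1, BRCA2 and RMI2 lie to the left of their points.

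Mismatch repair stood apart. MSH6, which recognises mismatches, held 286, 263, 271 and 273 CPM in DU145 and 160.0, 166, 153 and 147 CPM in PC3 (-0.80 ± 0.08, adjusted p = 5.91e-05). It had the highest median RPKM of the 33 members in DU145 (24.6) and the next highest after NBN in PC3 (14.3). PMS2, an endonuclease subunit, did not pass (-0.16 ± 0.10), with 20.6 to 24.8 CPM in PC3 against 23.7 to 27.4 CPM in DU145, ranges that overlap.

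The control libraries alone gave larger differences for several members. There, 25 members were lower in PC3 (40.9% of all tested genes lower) and 4 higher (41.6%). BRIP1 (-0.91), CHEK2 (-0.81), BARD1 (-0.66) and RAD54L (-0.46) passed as lower, RAD51C passed as higher (0.36), and the difference of NBN was 0.45 in place of 0.86. All 24 calls of the 8 libraries were kept in each of the 16 alternatives tried.

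Genes of the cell cycle differed with the lines: 20 of 20 S phase genes were lower in PC3 (median -1.39) and 18 of 20 G2/M genes (median -1.13). S phase genes summed to between 3373 and 3802 CPM in DU145 and between 1203 and 1348 CPM in PC3. Their part in the line difference of the members was not tested. Fewer cells in S phase and less RNA of a gene per cell cannot be told apart in these libraries.

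Other genes of the same pathways, from a list chosen beside the members, were less one-sided in their counts: of 39 homologous recombination and Fanconi genes, 18 were lower in PC3 and 11 higher. Among the largest falls were UBE2T, the ubiquitin-conjugating enzyme of the Fanconi core (-2.17), the ubiquitin ligase RFWD3 (-1.62) and the nuclease EXO1 (-1.53). Of 15 other checkpoint genes 11 were lower and 2 higher, and of 8 end joining genes 6 were lower and 1 higher.

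Genes that start within 1 Mb of a member gave a local reference, since cancer lines differ in copy number. The member lay below the median line difference of its tested neighbours for 29 of 33 genes. ATM, FANCM, CHEK2 and RAD51D lay above it. The sign of the member was that of its neighbours' median for 26 of 33. Neither count is set against the same count over all tested genes. The median rests on 1 tested neighbour for FANCF, 2 for FANCL and 3 for BARD1. The neighbours of RAD51D had a median of -1.33, close to its own -1.15, and those of NBN had 1.99, above its 0.86. The part of copy number was not tested, since no DNA data were used here.

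**Figure D3:**
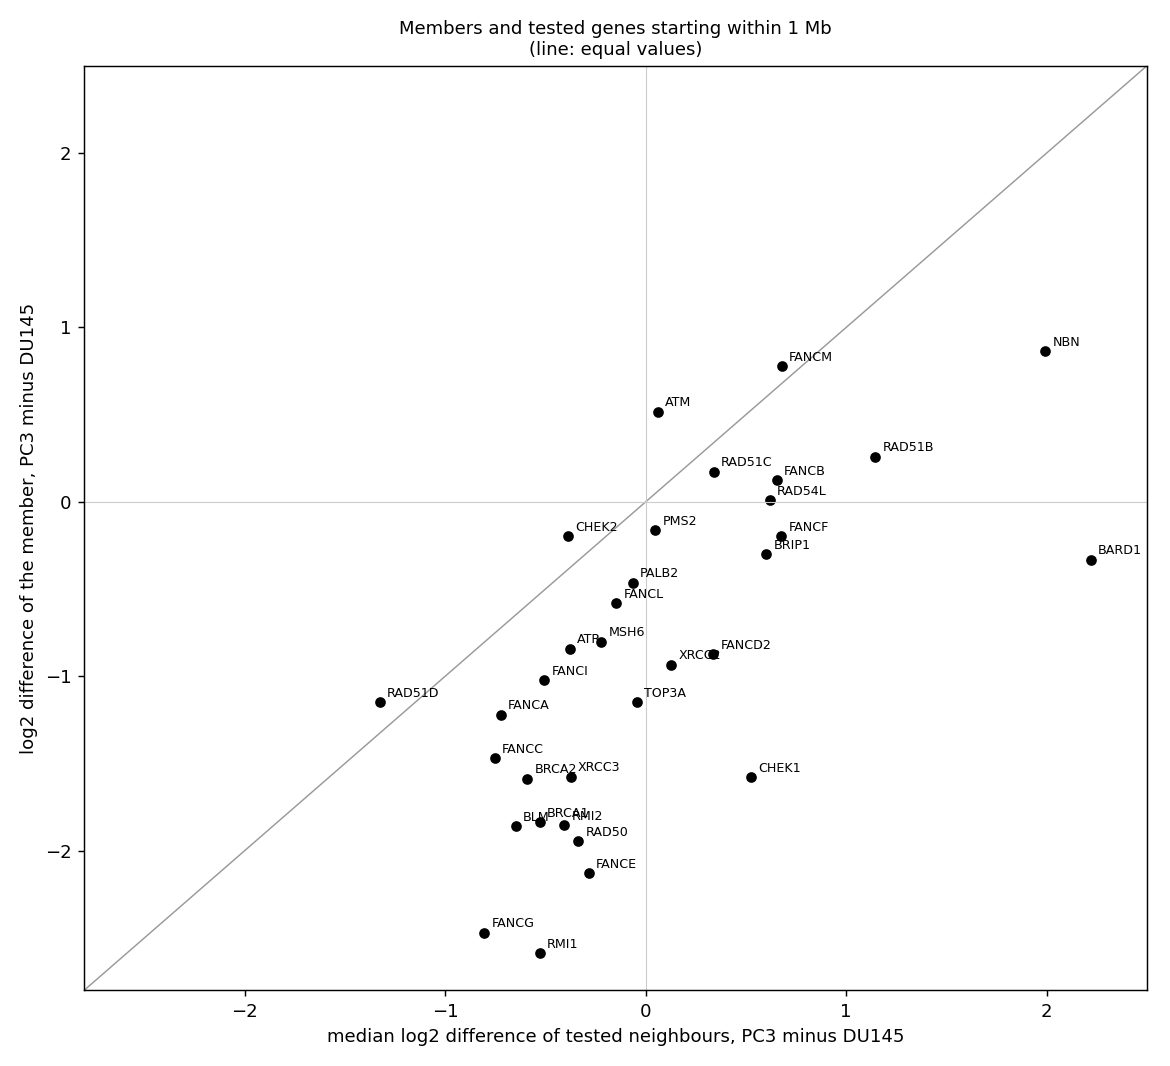
The log2 difference PC3 minus DU145 of each member (vertical) against the median of the tested genes that start within 1 Mb of it (horizontal), 1 point per member. The line marks equal values, and 29 of the 33 points lie below it.

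In PC3, 7 members rose with both circRNAs: BARD1, BRIP1, BRCA2, RAD54L, NBN, RMI2 and CHEK2. The share of all tested genes that rose with both is not given here, so these 7 are a list only. With circ0003553, 8 members were higher (24.2%, against 15.6% of all tested genes) and 2 lower (12.6% of all). With circ0004592, 9 were higher (27.3%, against 13.2% of all) and 3 lower (11.7% of all). The comparisons set each circRNA library of a line against both of its controls, so the 2 circRNAs share those controls and their values are given side by side and not as independent evidence. The median change of the 33 members was 0.14 and 0.07 (log2), against -0.01 over all tested genes in both.

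BRIP1, a helicase of the BRCA1 complex that also resolves secondary structures, had the largest rise of the members against both controls, with either circRNA. The PC3 controls held 12.0 and 15.6 CPM, the circ0003553 library 33.8 and the circ0004592 library 31.8. Both circRNA libraries lay above both controls, with changes of 1.29 ± 0.12 (adjusted p = 5.78e-08) and 1.21 ± 0.12 (adjusted p = 1.74e-07). Against the control of its own arm, circ0003553 gave a ratio of 2.82 (95% counting interval 2.41 to 3.32) and circ0004592 a ratio of 2.04 (1.76 to 2.36); in DU145 these ratios were 1.07 (0.959 to 1.19) and 0.982 (0.859 to 1.125). By the own-arm ratio with circ0004592, RMI2 (2.45), BRCA2 (2.28) and CHEK2 (2.15) stood above BRIP1, with no test of the order. In the controls DU145 held more BRIP1 than PC3 (26.9 and 25.0 CPM), and in the libraries with a circRNA it held less (28.8 and 24.5 CPM).

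CHEK2, the effector kinase of ATM, held 10.3 and 9.49 CPM in the PC3 controls, 20.7 with circ0003553 and 20.4 with circ0004592. Its changes were 1.06 ± 0.11 (adjusted p = 4.03e-07) and 1.04 ± 0.11 (adjusted p = 5.88e-07), and the circRNA libraries were about equal to each other and clear of the controls. CHEK2 shares 7.27% of its exon bases with HSCB on the opposite strand, which rose by 0.82 in both comparisons, and how the counting used strand is not given in the sources used here. CHEK2 also has near-identical pseudogene copies, so reads of those copies may be counted with it.

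BRCA2, a core factor of recombination, held 6.59 and 5.98 CPM in the PC3 controls, 12.7 with circ0003553 and 13.7 with circ0004592 (1.02 ± 0.12, adjusted p = 2.6e-06, and 1.12 ± 0.12, adjusted p = 6.61e-07). Even so, every PC3 library stayed below every DU145 library. NBN held 91.9 and 92.7 CPM in the controls, 174 with circ0003553 and 163 with circ0004592 (0.92 ± 0.06, adjusted p = 4.21e-10, and 0.82 ± 0.06, adjusted p = 2.51e-09). RMI2 went from 4.27 and 3.18 CPM to 7.70 and 7.78 (1.05 ± 0.17, adjusted p = 7.72e-05, and 1.06 ± 0.17, adjusted p = 7.03e-05). RMI2 is thinly counted in PC3, and its 2 controls differed by 0.42 (log2).

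BARD1, the partner of BRCA1, held 10.03 and 10.3 CPM in the PC3 controls and 15.1 and 13.7 with the circRNAs (0.58 ± 0.12, adjusted p = 0.00107, and 0.44 ± 0.12, adjusted p = 0.0112). RAD54L, the motor of strand exchange, held 4.80 and 4.94 CPM and then 7.21 and 8.03 (0.57 ± 0.16, adjusted p = 0.0137, and 0.72 ± 0.16, adjusted p = 0.0023). Of the exon bases of RAD54L, 25.1% are shared with LRRC41 on the opposite strand, whose fitted change was 0.30 and 0.16. With DESeq2, BARD1 with circ0004592 and RAD54L with either circRNA did not pass.

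**Figure D4:**
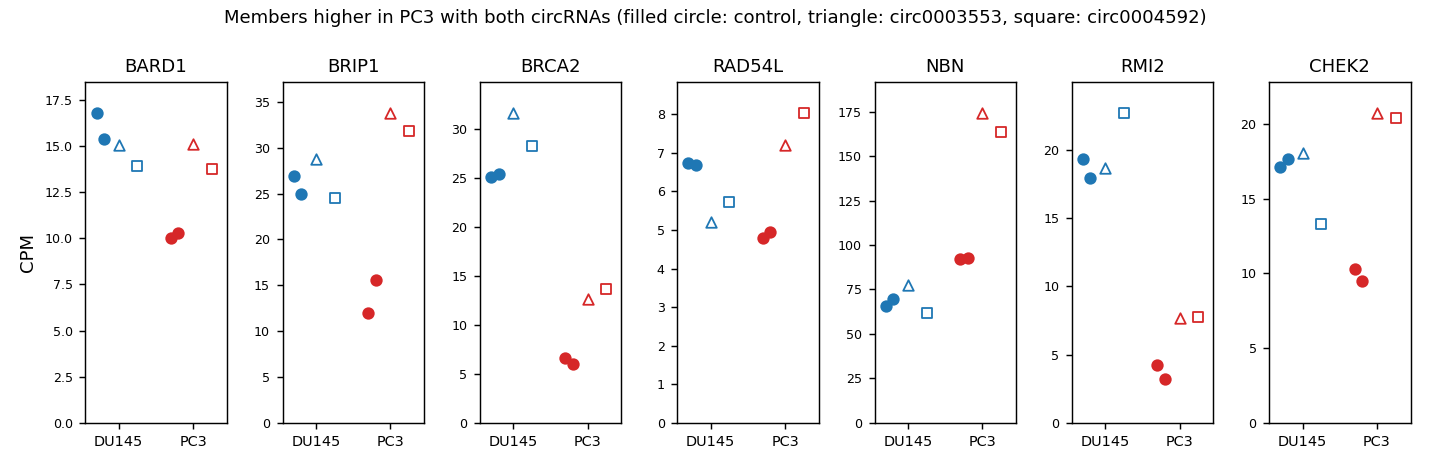
CPM of the 7 members that were higher in PC3 with both circRNAs, 1 panel per gene with its own axis from 0 and 1 point per library. Filled circles are controls, triangles circ0003553 and squares circ0004592. The members were chosen by their PC3 calls, so both PC3 circRNA libraries lying above both PC3 controls in every panel reflects that choice. In DU145 both circRNA libraries lie above both controls for BRCA2 and below both for BARD1 and RAD54L.

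Other calls in PC3 were smaller. With circ0003553, ATR rose by 0.34, and RAD51D, a paralog (-0.50 ± 0.13), and FANCE (-0.80 ± 0.16) fell. FANCE held 6.51 and 5.86 CPM in the controls and 3.56 with circ0003553, and with circ0004592 its change of -0.27 did not pass. With circ0004592, FANCL (0.40) and XRCC3 (0.27) rose, and FANCC (-0.70), BLM (-0.49) and RAD51C (-0.33) fell. VRK2, which shares exon bases with FANCL on the opposite strand, had a fitted change of 0.25 with circ0004592. Of these smaller calls of members, FANCE was called in each of the 15 alternatives and XRCC3 in 1 of 15. FANCC was called in 12 of 15, RAD51D, BLM and RAD51C each in 10, and ATR and FANCL each in 8. Apart from FANCE, DESeq2 and limma on RPKM called none of these. ATR did not pass without the STK3-arm control of PC3 (0.23, adjusted p = 0.122), nor FANCL without the RCAN3-arm control of PC3 (0.37, adjusted p = 0.0629), with edgeR.

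The other members did not pass with either circRNA in PC3. Among them BRCA1 changed by 0.14 and 0.09 and PALB2 by 0.24 and 0.07, beside their partners BRCA2, BARD1 and BRIP1. RAD50 changed by 0.01 and 0.02 beside NBN. MSH6 (0.08 and -0.09) and PMS2 (-0.26 and -0.24) did not pass; the adjusted p of PMS2 was 0.0523 and 0.083 with edgeR. Over both circRNA libraries together, 15 members lay above both controls (30.9% of all tested genes) and 7 below (31.7%).

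**Figure D5:**
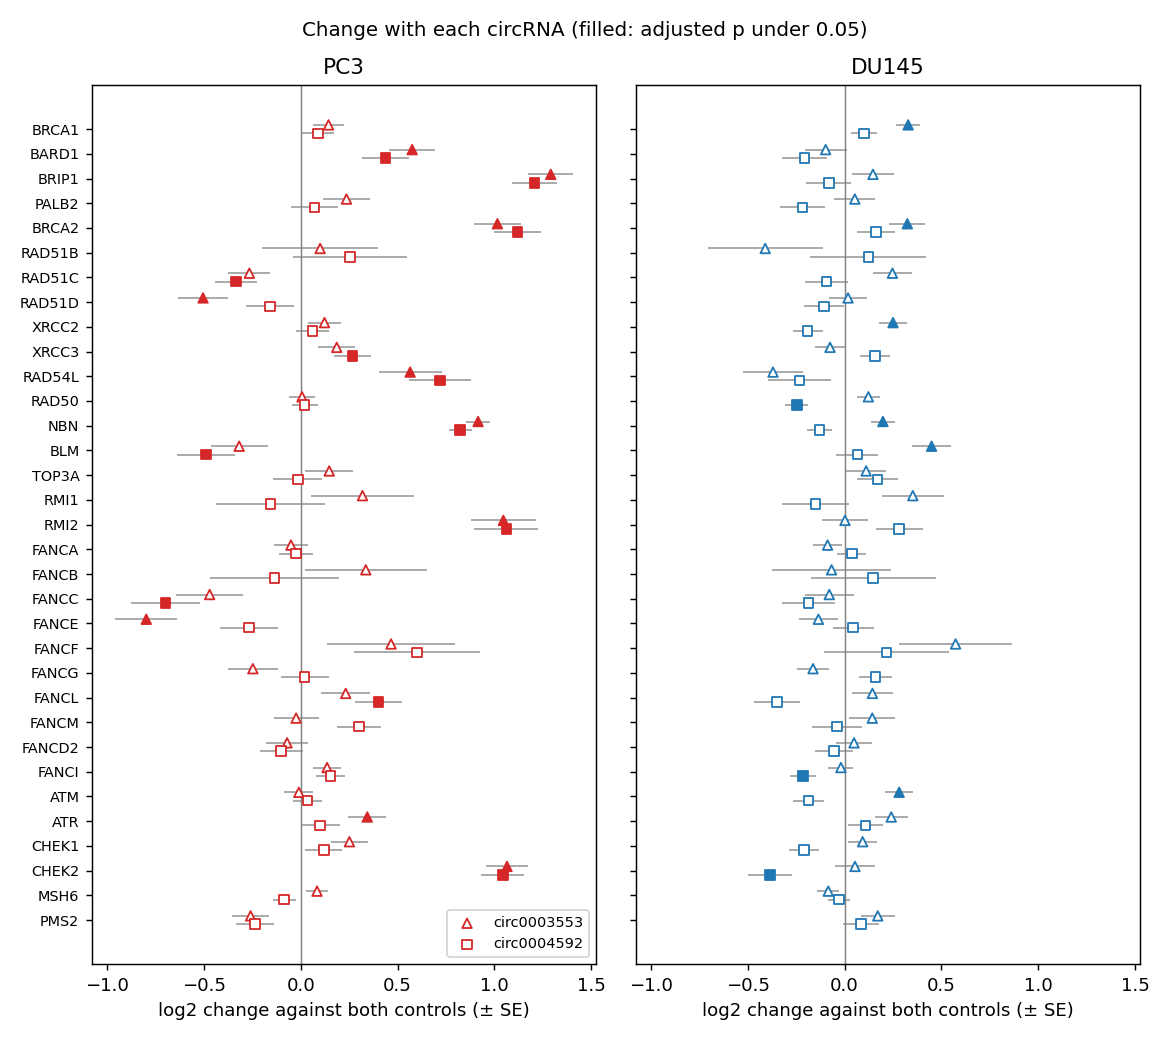
The log2 change of each member against both controls of its line (points, with SE bars), for circ0003553 (triangles) and circ0004592 (squares), in PC3 on the left and DU145 on the right. Filled symbols passed the adjusted p of 0.05. BRIP1, BRCA2, NBN, RMI2 and CHEK2 are named because their points lie above 0.8 in PC3. In DU145 the points of these members lie at most at 0.32.

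Interferon-stimulated genes moved with these results: 10 of 10 were higher in PC3 with each circRNA, and their summed level was 206 and 208 CPM in the controls, 13584 with circ0003553 and 13177 with circ0004592. Their part in the changes of the members was not tested. Of 20 S phase genes, 6 were higher and 1 lower with circ0003553, and 3 higher and 1 lower with circ0004592. Of 20 G2/M genes, 6 were higher and 4 lower, then 6 higher and 2 lower. S phase genes summed to 1212 and 1203 CPM in the PC3 controls, 1348 with circ0003553 and 1253 with circ0004592.

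Beyond the members, of 39 other homologous recombination and Fanconi genes, 8 were higher and 1 lower with circ0003553, and 8 higher and 2 lower with circ0004592. Of 15 other checkpoint genes, 7 and 6 were higher and 0 lower. The largest rise was that of ATRIP, the partner of ATR (1.63 and 1.69), followed by RAD9A (0.80 and 0.73) and TIPIN (0.60 and 0.58). In the deposited gene models ATRIP shares 33.8% of its exon bases with TREX1 on the same strand, and the genes were not separated there. Of 8 end joining genes, 3 were higher and 1 lower with circ0003553, and 2 higher and 1 lower with circ0004592. RIF1, which protects broken ends from trimming, rose by 0.69 and 0.61, the nuclease gene DCLRE1C rose by 0.38 and 0.52, and XRCC6, a Ku subunit, rose by 0.23 with circ0003553. PRKDC, the DNA-PK kinase, fell by 0.29 and 0.49 on the log2 scale.

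In DU145 the changes were small. With circ0003553, 6 members were higher (18.2%, against 4.24% of all tested genes) and 0 lower with edgeR (6.3% of all), namely BLM (0.45), BRCA1 (0.33), BRCA2 (0.32), ATM (0.28), XRCC2 (0.25) and NBN (0.20). BLM held 18.4 and 19.8 CPM in the controls and 26.02 with circ0003553 (adjusted p = 0.00768), and BRCA1 79.1, 78.4 and 98.9 (adjusted p = 0.00238). At an unadjusted p under 0.05, 1 was lower, and DESeq2 called 0 lower and 1 higher. With circ0004592, 0 were higher with edgeR (5.24% of all; 1 at an unadjusted p under 0.05, and 0 with DESeq2) and CHEK2 (-0.38), RAD50 (-0.25) and FANCI (-0.22) were lower (3 of 33, against 4.65% of all). CHEK2 held 17.1 and 17.7 CPM in the controls and 13.3 with circ0004592 (adjusted p = 0.0373).

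With limma on log2(RPKM + 0.1), 0 members were called with either circRNA, with 10 and 7 at an unadjusted p under 0.05; that setting called 0 of all 17869 genes in DU145, so it says nothing particular to the members. Without the RCAN3-arm control of DU145, edgeR called 1 member with circ0003553 and 0 with circ0004592, and without the STK3-arm control 2 and 0. The circRNA libraries lay above both controls for 7 members (18.7% of all tested genes) and below both for 4 (19.9%). Interferon-stimulated genes summed to 146 and 143 CPM in the DU145 controls, 189.7 with circ0003553 and 203 with circ0004592.

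The 2 lines differed in their response by the test of the difference itself. The change with circ0003553 was higher in PC3 than in DU145 for 7 members (13.4% of all tested genes) and lower for 5 (9.24% of all). With circ0004592 it was higher for 10 (10.6% of all) and lower for 1 (8.91% of all). CHEK2 differed by 1.01 ± 0.15 (adjusted p = 6.33e-05) and 1.43 ± 0.16 (adjusted p = 1.79e-06), BRIP1 by 1.14 ± 0.16 (adjusted p = 3.17e-05) and 1.29 ± 0.17 (adjusted p = 1.2e-05), and NBN by 0.72 ± 0.09 (adjusted p = 5.38e-06) and 0.95 ± 0.09 (adjusted p = 1.94e-07). BARD1, BRCA2, RAD54L and RMI2 were also higher in both with edgeR. Of these members, only CHEK2 and NBN passed with every tool for both circRNAs. BRIP1 with circ0003553 did not pass with limma on log2(RPKM + 0.1) or log2(RPKM + 1). With DESeq2, BARD1 (adjusted p = 0.129 and 0.207) and RAD54L (0.156 and 0.182) did not pass for either circRNA, nor BRCA2 with circ0003553 (0.064) or RMI2 with circ0004592 (0.163). With limma on log2(RPKM + 0.1), BARD1, BRCA2 and RMI2 did not pass for either, with adjusted p from 0.0547 to 0.14. BLM was lower in both with edgeR (-0.77 and -0.56): it rose in DU145 with circ0003553 and fell in PC3 with circ0004592. In DESeq2 the BLM difference passed for neither circRNA, nor in limma at either pseudocount for circ0004592. The rise of BLM in DU145 was lost in 5 of 14 alternatives, and its fall in PC3 in 5 of 15. With 1 library per circRNA and line, the fit takes the spread of the controls for the circRNA libraries too.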

How the data were processed

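Raw read counts per gene were deposited by the authors, 1 table per arm, beside tables of RPKM that the authors deposited from the same libraries. Per the submitters' processing notes, Trimmomatic 0.36, featureCounts, Subread 1.5.1, edgeR 3.12.1 and hg38 were used; the aligner, annotation release, strand setting and use of molecular identifiers are not given in the sources used here. The kit is a stranded one with molecular identifiers, per the labels' protocols. Of 36779 genes, 31268 stand in both count tables, and the 5511 in 1 table (at most 14 counts) were given 0 in the other. Genes with at least 1 CPM in at least 2 libraries were tested with TMM factors and edgeR 4.0.16 in R 4.3.3. The line fit has a block per arm and plasmid (3 residual degrees of freedom). The circRNA fits have 6 groups of line and plasmid (2 residual degrees of freedom), so the spread comes from the 2 controls of each line. The SE is the absolute log2 change over the square root of F. Even numbers made up 64.85% to 66.08% of counts from 1 to 20, so the read pair (counts divided by 2) was the unit of the 95% Clopper-Pearson intervals, which cover counting error only. The scripts were tested on simulated data. Alternatives were DESeq2 size factors, DESeq2 1.42.0, no filter, a filter of 5 CPM, limma 3.58.1 on log2(RPKM + 0.1) and log2(RPKM + 1), other groupings, and each library left out. All 33 members could be named, and of other lists up to 4 genes per comparison past the threshold, by size, with mismatch repair and line check genes in any case; some of these are not reported here. Members and lists were chosen with earlier results of these data known.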

Additional observations from a re-analysis of the deposited data

Results flagged for a closer look

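The values below are members whose change with a circRNA differed between the lines by the interaction test of edgeR (adjusted p under 0.05 over 17869 genes), as PC3 minus DU145 on the log2 scale. With circ0003553 they were BRIP1 (1.14), RMI2 (1.04), CHEK2 (1.01), RAD54L (0.93), NBN (0.72), BRCA2 (0.69) and BARD1 (0.67) above 0, and BLM (-0.77), FANCE (-0.66), RAD51D (-0.52), RAD51C (-0.51) and PMS2 (-0.43) below 0. PMS2 was the mismatch repair member among them. Without the STK3-arm control of DU145, RAD51C (-0.48, adjusted p = 0.0534), RAD51D (-0.53, 0.056) and PMS2 (-0.42, 0.0567) did not pass with edgeR.

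With circ0004592 they were CHEK2 (1.43), BRIP1 (1.29), BRCA2 (0.96), NBN (0.95), RAD54L (0.95), RMI2 (0.78), FANCL (0.75), BARD1 (0.64), FANCI (0.37) and RAD50 (0.27) above 0, and BLM (-0.56) below 0. RAD50 was called in 1 of 12 alternatives. Without the RCAN3-arm control of DU145, BARD1 (0.55, adjusted p = 0.0611), RMI2 (0.69, 0.0656) and BLM (-0.53, 0.0942) did not pass with edgeR, and without the STK3-arm control FANCI (0.32, 0.0595) did not. CHEK2 and NBN were called in each alternative for both circRNAs, and BRIP1 for circ0004592. The interferon-stimulated genes differed between the lines in the same fits, 10 of 10 higher for each circRNA, and their part was not tested.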

How the results depend on the processing

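The line calls (24 members) stayed between 24 and 29 in every alternative, and the PC3 calls with circ0003553 (10) between 7 and 13. With circ0004592 in PC3, 12 calls became 5 with DESeq2 and 6 with limma on RPKM at either pseudocount. In DU145 with circ0003553, 6 calls became 1 with DESeq2 and 0 with limma at either pseudocount, with the own-arm fit or with 4 groups; leaving out 1 library gave 1 to 8, with 1 left without the RCAN3-arm control and 2 without the STK3-arm control. In DU145 with circ0004592, 3 calls became 1 with DESeq2 and with no filter, and 0 with limma at either pseudocount, the own-arm fit or 4 groups; leaving out 1 library gave 0 to 4, with 0 left without either control. The interaction with circ0003553 (12) became 4 with DESeq2, 6 with limma at 0.1 and 5 at 1. The interaction with circ0004592 (11) became 4 with DESeq2 and 5 with limma at either pseudocount, and 7 to 11 with 1 library left out, 7 without the RCAN3-arm control of DU145. The cause was not tested. Of 1123 values of single calls under an alternative, 955 kept the call, 168 lost it and 0 reversed. BRIP1, BRCA2, CHEK2, NBN and RMI2 were called in PC3 with both circRNAs in each of 15 alternatives. The own-arm fit is the paired one: the titles pair each circRNA library with the control of its line and arm, and the fit blocks by these pairs, with both circRNAs together; in PC3 it called 9 members. Over all genes in DU145, limma called 0 of 17869, the own-arm fit 0.907% and the fit of 4 groups 1.05%, so 0 members there is no result about the members. At the lowest depth, 6 counts are 0.184 CPM, and FANCB, FANCF and RAD51B lie closest to it.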
